A study of Mus musculus with 8 samples.

Results

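The genes described are 9 receptors through which blood progenitors home to and stay in the bone marrow: the chemokine receptor gene Cxcr4, the integrin subunit genes Itga4, Itga5, Itgb1, Itgal, Itgam and Itgb2, the selectin ligand gene Selplg and the hyaluronan receptor gene Cd44. They were taken by symbol, and all 9 were among the 55291 genes of the deposited count table. RNA had been sequenced from leukaemic granulocyte-macrophage progenitors (L-GMP) sorted from the bone marrow of mice with acute myeloid leukaemia. Sorted cells lacked lineage markers and Sca-1 and carried c-Kit, CD16/32 and CD34. KO libraries came from leukaemias of genotype Dekfl/fl,MX1-Cre and FL libraries from leukaemias of genotype Dekfl/fl, with 4 libraries in each group. All 8 libraries came from leukaemias that were driven by MLL-AF9 and had floxed alleles of Dek, which encodes a chromatin-bound protein. MX1-Cre, whose promoter responds to interferon, was carried by KO mice only, so Cre itself and loss of Dek cannot be told apart here. The labels give no inducing agent and no strain, age or sex. They also do not say that each library is a different mouse, so the p-values cover only library-to-library spread, possibly technical.

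Homing runs in steps. Selectins on marrow vessels catch passing cells through sugar-decorated proteins such as PSGL-1, the product of Selplg, and through glycoforms of CD44. CXCR4 then senses CXCL12 made by marrow stroma and signals inside the cell to switch integrins on. An integrin is a pair of one alpha and one beta chain, and the pair sets the ligand. The beta1 pairs with alpha4 and alpha5 bind VCAM1 and fibronectin, and the beta2 pairs with alphaL (LFA-1) and alphaM (Mac-1) bind ICAM proteins. AlphaM is CD11b, an antigen of mature myeloid cells that lineage antibody mixtures often include. The labels do not name the mixture used for this sort, so how far the gate sets the Itgam level was not tested.

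Library totals were 33941940 to 49736592 counts in KO and 44086524 to 58660705 in FL. Levels below are CPM, each gene's share of its library's counts scaled to 1000000 and corrected by TMM factors, which were 1.204 to 1.255 in KO and 0.6823 to 0.9121 in FL. The number of genes detected was 30606 to 37801 in KO and 24125 to 26053 in FL, so it followed the groups. Scaling by total counts alone moved the median log2 fold change of all genes by 0.59, to 0.64 from 0.05 under TMM. Directions below are therefore relative to the TMM scale, and values by total counts are given beside the genes named whose call they change. Dek measured 21.2, 21.4, 31.0 and 16.7 CPM in KO and 129, 137, 163 and 178 CPM in FL. Every KO library was far below FL. Dek averaged 22.5 ± 6.03 CPM in KO and 152 ± 22.7 CPM in FL (SD, n = 4 each), 6.73-fold lower (edgeR adjusted p = 1.7e-05), in the direction of the labels. Of the sort markers, Kit averaged 154 ± 31.5 CPM in KO and 91.1 ± 11.4 CPM in FL. Cd34 averaged 461 ± 58.8 CPM in KO and 710 ± 77.0 CPM in FL, a log2 fold change of -0.62, or -0.03 by total counts, where it did not pass. Ly6a, which encodes the excluded Sca-1, averaged 1.64 ± 0.871 CPM in KO and 0.342 ± 0.240 CPM in FL (SD, n = 4 each), 4.78-fold higher (edgeR adjusted p = 0.010). Fcgr3, which encodes CD16, averaged 362 ± 83.8 CPM in KO and 644 ± 162 CPM in FL (SD, n = 4 each), 1.78-fold lower (edgeR adjusted p = 0.012), a call lost by total counts (-0.26) and without KO replicates 2 and 3 (-0.75). Fcgr2b, which encodes CD32, had -0.06 (edgeR adjusted p = 0.79) and was called higher by total counts (0.52). None of these sort markers was called when the number of detected genes was added to the model, where 1.18% of all genes were called. In these bulk libraries, fewer cells of a type and less RNA per cell cannot be told apart.

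The receptors did not move as one group. Itgal, the alpha chain of LFA-1, rose in KO, while Selplg, Itga4 and Itgb2 fell, and the other 5 did not pass. These 4 calls came from edgeR's quasi-likelihood test over 17418 genes at an adjusted p of 0.05. DESeq2 also called 1 higher and 3 lower. Its shares were 8.40% higher and 5.83% lower, but of all 46035 genes with any count, so they do not compare directly with the edgeR shares. By edgeR 27.9% of all genes were called, 13.0% as higher and 14.9% as lower in KO, and the 1 higher and 3 lower among 9 are to be read against those shares. All 9 receptors passed the filter on low counts. Their median log2 fold change was -0.34, against 0.05 for all genes tested, and by total counts it was 0.25, against 0.64. With limma-voom 1 receptor was called higher and 6 lower, where 32.6% of genes were called, 15.4% higher and 17.2% lower. By total counts 3 receptors were called higher and 1 lower, where 56.8% of genes were called, 51.7% higher and 5.09% lower. With the number of detected genes in the model 1 was called higher, where 0.614% of genes were called higher and 0.563% lower. Without KO replicates 2 and 3, 2 were called, Itgal higher and Selplg lower, where 12.8% of genes were called, 5.44% higher and 7.31% lower. All KO libraries lay above all FL libraries for Itgal and below them for Itga4, Itgb1 and Selplg, whereas groups failed to overlap for 30.9% of all genes.

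**Figure D1:**
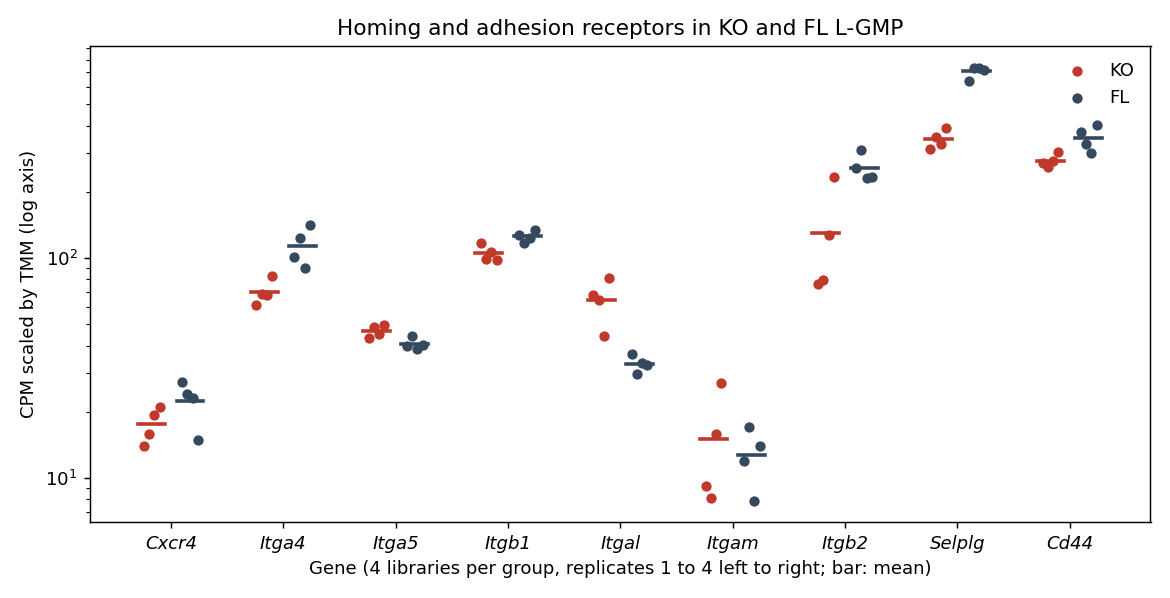
CPM of each receptor gene (log axis) in the 4 KO and 4 FL libraries, with the mean as a bar. Itgal sits at 44.3 to 80.8 CPM in KO above 29.6 to 36.7 CPM in FL, Selplg is below its FL values in all KO libraries, and Itgb2 and Itgam are widely spread in KO.

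The beta2 integrin genes moved apart. Itgal spans chromosome 7 from 127296260 to 127335138 in mm10, and like the other 8 it is protein coding. It measured 67.8, 64.8, 44.3 and 80.8 CPM in KO replicates 1 to 4 and 36.7, 29.6, 33.2 and 32.6 CPM in FL replicates 1 to 4. Even the lowest KO library, replicate 3, was above the highest FL library. The mean was 64.4 ± 15.1 CPM in KO and 33.0 ± 2.93 CPM in FL (SD, n = 4 each), or 0.97 higher on the log2 scale (SE 0.17; edgeR adjusted p = 0.0019), which is 1.95-fold. Itgal was the only one of the 9 that stayed called with the number of detected genes in the model, where its log2 fold change was 1.71 (adjusted p = 0.023 by edgeR) and 1.18% of all genes were called. Its adjusted p ranged from 2.2e-07 to 0.023 over the alternatives without a fold limit, and under total-count scaling the log2 fold change was 1.56.

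Itgb2 encodes the beta chain shared by LFA-1 and Mac-1 and lies on chromosome 10 from 77530252 to 77565708. It measured 76.5, 79.4, 127 and 235 CPM in KO and 257, 309, 232 and 235 CPM in FL. KO replicates 1 and 2 were lowest, and KO replicate 4 fell inside the FL range, so the groups overlapped. The mean was 129 ± 74.1 CPM in KO and 258 ± 35.7 CPM in FL (SD, n = 4 each), a log2 fold change of -1.0 (SE 0.31, adjusted p = 0.035 by edgeR). This call was lost without KO replicate 1, 2 or 3 or FL replicate 1, 2 or 3 (adjusted p 0.059 to 0.095 by edgeR) and when 5 CPM were required in 4 libraries (0.053). It was also lost under total-count scaling (-0.42, adjusted p = 0.24 by edgeR), without KO replicates 2 and 3 (-0.73, 0.23) and with the number of detected genes in the model (-0.26, 0.89). Without KO replicate 4 the log2 fold change was -1.47 (adjusted p = 8.6e-04 by edgeR). Over the alternatives without a fold limit the adjusted p ranged from 1.4e-09 to 0.89.

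Itgam, the alpha chain of Mac-1, lies on chromosome 7 from 128062640 to 128118491. It measured 9.21, 8.08, 15.8 and 27.0 CPM in KO and 11.9, 17.1, 7.89 and 14 CPM in FL. KO replicates 1 and 2 were near the lowest FL library and KO replicate 4 was above all of FL. The mean was 15.0 ± 8.70 CPM in KO and 12.7 ± 3.87 CPM in FL (SD, n = 4 each), with a log2 fold change of 0.24 (SE 0.36, adjusted p = 0.66 by edgeR). It was -0.22 without KO replicate 4. In GENCODE M21, Itgam shares 3518 of its 5024 exonic bases with Gm49368 on the same strand, which had 14 counts in KO and 2 in FL over the group. How shared reads were counted is not given, and its effect on the Itgam level was not tested.

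Ratios of 2 genes within a library do not depend on the scaling between libraries. The ratio of Itgal to Itgb2 counts per exonic kilobase was 0.412, 0.379, 0.162 and 0.160 in KO and 0.0664, 0.0444, 0.0664 and 0.0644 in FL. Every KO library was above every FL library, with KO replicates 1 and 2 highest, and the mean log2 ratio was higher by 2.08, or 4.23-fold. The Itgam to Itgb2 ratio was 0.0732, 0.0618, 0.0756 and 0.0699 in KO and 0.0281, 0.0336, 0.0206 and 0.0363 in FL. It was higher by 1.27 on the log2 scale with no overlap, and the SD of its log2 value between KO libraries was 0.13 although both genes varied widely among them. Itgal to Itgam ratios overlapped, at 2.15 to 6.14 in KO and 1.32 to 3.22 in FL. The size of each ratio depends on the lengths used, and the difference between groups does not. These ratios are given as a description, with no test.

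**Figure D2:**
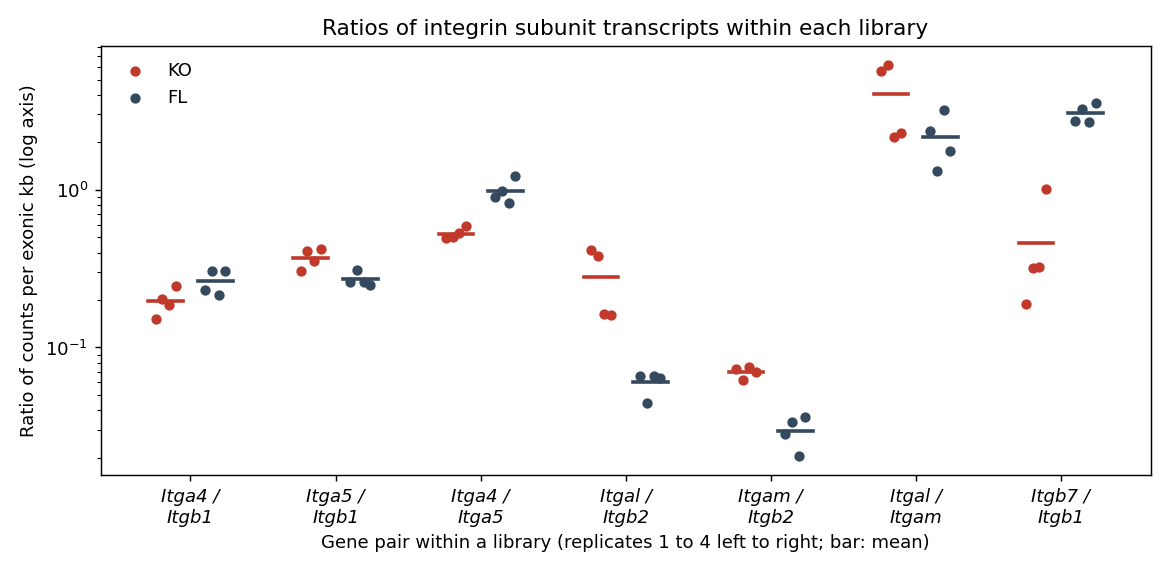
Ratio of counts per exonic kilobase between integrin subunit genes within each library (log axis), with the mean as a bar. Itgal and Itgam stand higher against Itgb2 in all 4 KO libraries than in any FL library, and Itga4 stands lower against Itga5.

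Among the partners of beta1, Itga4 fell and Itga5 and Itgb1 did not pass. The 250 bases before the RefSeq start of both alpha chain genes (GRCm38.p6, gene strand) are shown because one was called and the other was not. Capitals mark GGAA on either strand (TTCC where it is on the other), the core that ETS family factors bind.
Itga4, chr2:79255176-79255425, plus strand: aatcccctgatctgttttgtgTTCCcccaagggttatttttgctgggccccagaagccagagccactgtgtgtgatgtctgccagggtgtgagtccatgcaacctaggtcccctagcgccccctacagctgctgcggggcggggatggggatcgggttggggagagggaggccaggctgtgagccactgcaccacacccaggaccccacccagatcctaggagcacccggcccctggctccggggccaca
Itga5, chr15:103366792-103367041, minus strand: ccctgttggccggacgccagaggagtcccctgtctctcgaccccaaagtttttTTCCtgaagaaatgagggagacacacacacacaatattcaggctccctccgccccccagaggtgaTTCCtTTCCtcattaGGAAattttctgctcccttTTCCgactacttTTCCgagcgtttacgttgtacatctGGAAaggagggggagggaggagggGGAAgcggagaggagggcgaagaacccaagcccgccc
The Itga4 window held 1 match and the Itga5 window 8, and 93.4% of 32851 such windows held at least 1, with a median of 3. TGATNNAT, a motif of PBX paired with HOX proteins, searched on both strands, was in neither window and in 7.68% of all windows. It therefore overlapped no GGAA match in either. Cxcr4, Itgb1, Itgam and Cd44 also had a window, and Itgal, Itgb2 and Selplg did not.

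Itga4, the alpha4 chain of the VCAM1 receptor, lies on chromosome 2 from 79255426 to 79333123. It measured 61.0, 68.7, 68.1 and 82.7 CPM in KO and 101, 124, 89.9 and 141 CPM in FL. The highest KO library was below the lowest FL library. The mean was 70.1 ± 9.09 CPM in KO and 114 ± 22.7 CPM in FL (SD, n = 4 each), a log2 fold change of -0.70 (SE 0.15, adjusted p = 0.0066 by edgeR), or 1.62-fold lower. Under total-count scaling it was -0.10 and did not pass, while all genes stood at a median of 0.64. The call was also lost without KO replicates 2 and 3 (adjusted p = 0.078 by edgeR) and with the number of detected genes in the model (0.46), within a range of 5.2e-05 to 0.62. Of its 13978 exonic bases, 1683 overlap Cerkl on the opposite strand. Cerkl averaged 7.02 ± 0.867 CPM in KO and 7.04 ± 1.79 CPM in FL (SD, n = 4 each), and without the strand setting its reads cannot be told apart from those of Itga4.

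Itga5, the alpha5 chain of the fibronectin receptor, lies on chromosome 15 from 103344286 to 103366763. It measured 43.4, 48.6, 45.4 and 49.8 CPM in KO and 40.0, 44.3, 38.6 and 40.3 CPM in FL. Most KO libraries were above most FL libraries, with an overlap between KO replicate 1 and FL replicate 2. The log2 fold change came to 0.20, with SE 0.10 and an adjusted p of 0.17 by edgeR, and 0.78 under total-count scaling, where it passed (adjusted p = 0.0014 by edgeR) and 51.7% of all genes were called higher. Itgb1, their beta chain, lies on chromosome 8 from 128685654 to 128733200. It measured 117, 98.6, 107 and 98.2 CPM in KO and 128, 117, 123 and 134 CPM in FL. The highest KO library was just under the lowest FL library. Its log2 fold change came to -0.26, with SE 0.10 and an adjusted p of 0.085 by edgeR. Under total-count scaling the sign turned, at 0.34 with an adjusted p of 0.047 by edgeR.

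Within libraries, the ratio of Itga4 to Itga5 per exonic kilobase was 0.496, 0.499, 0.529 and 0.586 in KO and 0.894, 0.986, 0.823 and 1.23 in FL. It was lower in every KO library, by 0.89 on the log2 scale or 1.85-fold. Against Itgb1 both ratios overlapped between the groups. Itga4 to Itgb1 was 0.152 to 0.246 in KO and 0.214 to 0.307 in FL, and Itga5 to Itgb1 was 0.306 to 0.420 in KO and 0.249 to 0.312 in FL. Alpha4 has a second partner, beta7, with which it binds MADCAM1. The ratio of Itgb7 to Itgb1, examined after its values were seen, was 0.189, 0.321, 0.324 and 1.01 in KO and 2.73, 3.23, 2.70 and 3.56 in FL. Itgb7 was the more abundant of these beta chain transcripts per length in every FL library, and Itgb1 in KO replicates 1 to 3.

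Selplg fell, with the smallest SE of the 4 called receptors. PSGL-1, its product, carries the glycans that P-selectin and E-selectin bind. The gene lies on chromosome 5 from 113818536 to 113832644. It measured 314, 355, 332 and 389 CPM in KO and 638, 736, 734 and 718 CPM in FL. The highest KO library was well under the lowest FL library. The mean was 347 ± 32.5 CPM in KO and 707 ± 46.7 CPM in FL (SD, n = 4 each), a log2 fold change of -1.02 (SE 0.11, adjusted p = 1.6e-04 by edgeR), or 2.03-fold lower. It was -0.43 under total-count scaling and still passed (adjusted p = 0.017 by edgeR), where 5.09% of all genes were called lower. With the number of detected genes in the model it was -0.98 and did not pass (adjusted p = 0.12 by edgeR). The adjusted p ranged from 1.2e-12 to 0.12 over the alternatives without a fold limit.

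Cd44, which encodes the hyaluronan receptor, lies on chromosome 2 from 102811141 to 102901665. It measured 271, 259, 277 and 305 CPM in KO and 373, 332, 302 and 403 CPM in FL. Only KO replicate 4 reached the FL range. The log2 fold change came to -0.34, with SE 0.12 and an adjusted p of 0.054 by edgeR. Without KO replicate 4 it was -0.40 and without FL replicate 3 it was -0.43, and both passed (adjusted p = 0.044 and 0.025 by edgeR). Under total-count scaling it was 0.25 and did not pass. The gene-level count does not separate the standard form of CD44 from its splice variants.

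Cxcr4, the receptor gene for CXCL12, lies on chromosome 1 from 128588199 to 128592293. It measured 14, 15.8, 19.3 and 21.0 CPM in KO and 27.3, 24.2, 23.0 and 14.9 CPM in FL. KO libraries were below FL replicates 1 to 3, and FL replicate 4 lay inside the KO range. The mean was 17.5 ± 3.18 CPM in KO and 22.3 ± 5.31 CPM in FL (SD, n = 4 each), with a log2 fold change of -0.35 (SE 0.20, adjusted p = 0.21 by edgeR). Without FL replicate 4 it was -0.52 and passed (adjusted p = 0.035 by edgeR), within a range of 0.035 to 0.78 over the alternatives without a fold limit. Under total-count scaling it was 0.21.

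**Figure D3:**
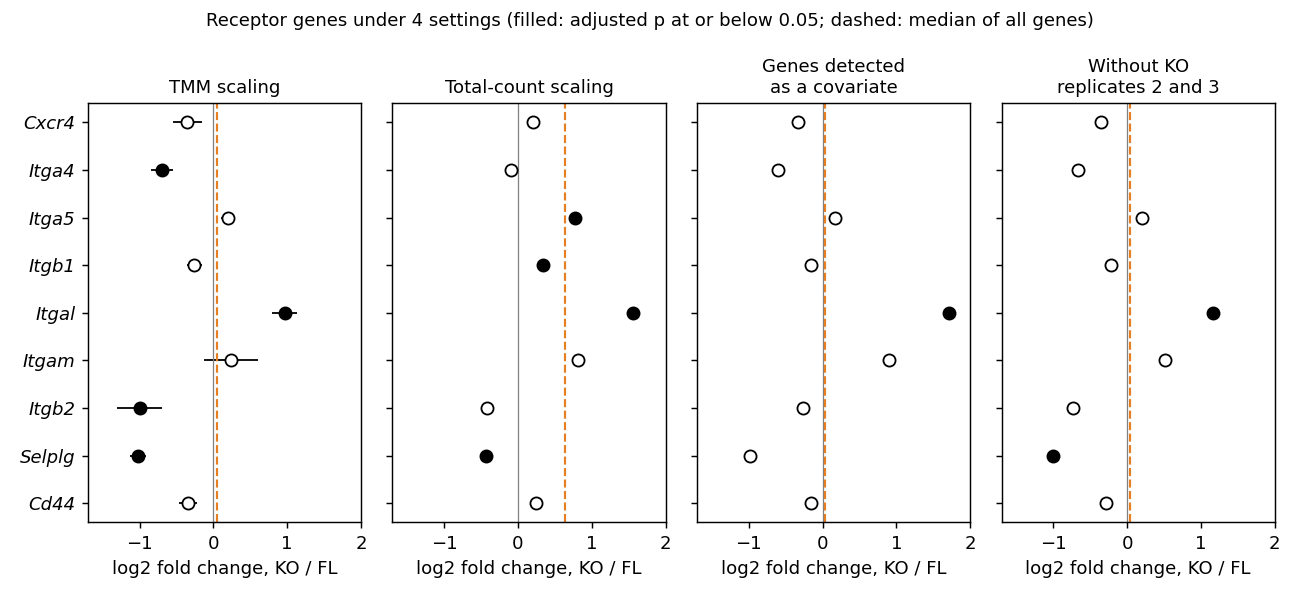
Log2 fold change of KO over FL for the 9 receptors (x axis) under 4 settings, with ±1 SE in the first panel, filled points for adjusted p at or below 0.05 and a dashed line at the median of all genes. Itgal is filled in all 4 panels, and total-count scaling moves the receptors and the all-gene median to the right together.

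Per exonic kilobase, Selplg had the highest mean of the 9 in both groups, at 81.3 ± 7.61 CPM per kb in KO and 165 ± 10.9 in FL (SD, n = 4 each). Itgb2 averaged 42.4 ± 24.3 in KO and 84.6 ± 11.7 in FL on the same scale. Cd44 averaged 41.0 ± 2.86 in KO and 52.0 ± 6.61 in FL. In KO the range of Itgb2, 25.1 to 77, overlapped those of Selplg, Cd44 and Itgb1, the last at 24.1 to 28.7. In FL none of these ranges overlapped. Itgb1 came next by mean, with 25.8 ± 2.18 in KO and 30.8 ± 1.74 in FL. Itgal, Cxcr4 and Itga5 overlapped in KO, at means of 9.81, 9.68 and 9.48, above Itga4 at 5.02, which overlapped Itgam at 2.99. In FL, Cxcr4, Itga5 and Itga4 overlapped at 12.4, 8.26 and 8.15, followed by Itgal at 5.02 and Itgam at 2.53. Itgal ranked 8 of 9 in FL and 5 of 9 in KO. With the length of the longest principal transcript, Itga4 and Itga5 changed places in FL, and in KO Cd44 and Itgb2 did, as did Itga5 and Cxcr4. With that length Selplg, at 169 to 210 in KO, no longer overlapped Itgb2, at 25.7 to 79.2.

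Of 20 other integrin subunit genes, 14 were kept and 5 fell, with 0 that rose, by edgeR. Of the 14, 8 had an unadjusted p under 0.05 in either direction. The limma-voom test called 2 higher, and DESeq2, which kept all 20, called 5 higher and 5 lower. Under total-count scaling 3 fell and 3 rose. Of all genes, edgeR called 13.0% higher and 14.9% lower under TMM, and 51.7% and 5.09% by total counts. The limma-voom shares were 15.4% and 17.2%, and those of DESeq2 8.40% and 5.83% of 46035 genes. The counts called in this list and those below are to be read against these shares. The median log2 fold change of the kept genes was -0.09. Itgb7 measured 15.0, 21.5, 23.5 and 67.2 CPM in KO and 237, 257, 225 and 324 CPM in FL. All KO libraries were far below FL, and KO replicate 4 stood highest among them. Its log2 fold change came to -3.03, with SE 0.41 and an adjusted p of 4.8e-04 by edgeR, and -3.72 without KO replicate 4. Itgb3, the beta chain of the vitronectin and platelet fibrinogen receptors, averaged 5.53 ± 2.75 CPM in KO and 23.4 ± 8.36 CPM in FL (SD, n = 4 each; log2 fold change -2.08, SE 0.34, adjusted p = 0.0014 by edgeR). Itga2b, the platelet alpha chain that pairs with it, had -1.64 (adjusted p = 0.0050 by edgeR). Itga1, a collagen receptor chain that pairs with beta1, averaged 101 ± 44.0 CPM in KO and 240 ± 82.7 CPM in FL (SD, n = 4 each). Its log2 value was -1.25 (adjusted p = 0.011 by edgeR), and it did not pass by total counts (-0.68) or without KO replicates 2 and 3. Itgb5, a vitronectin receptor chain, had -1.12 (adjusted p = 0.023 by edgeR), and -0.49 under total-count scaling, where it did not pass. Its call was also lost without any 1 of KO replicates 1 to 3 and FL replicates 3 and 4 (adjusted p 0.051 to 0.060 by edgeR), and without KO replicates 2 and 3 (-0.94, 0.16).

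KO replicate 4 was the highest KO library for 8 of the 9 receptors (all but Itgb1), for 60 of the 105 kept pathway genes and for 5098 of the 17418 genes tested. The macrophage marker gene Adgre1, picked after its values were seen, measured 17.3, 17.6, 29.3 and 57.0 CPM in KO replicates 1 to 4. In FL it measured 105, 143, 57.7 and 115 CPM (log2 fold change -1.79, adjusted p = 0.0062 by edgeR). That call was lost without KO replicates 2 and 3 (-1.50, 0.069). Ly6c2, of the same marker list, was lowest in KO replicate 4, at 1271 CPM. The whole list summed to 2036, 2104, 1834 and 1871 CPM in KO. The part of such cells in these levels was not tested.

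**Figure D4:**
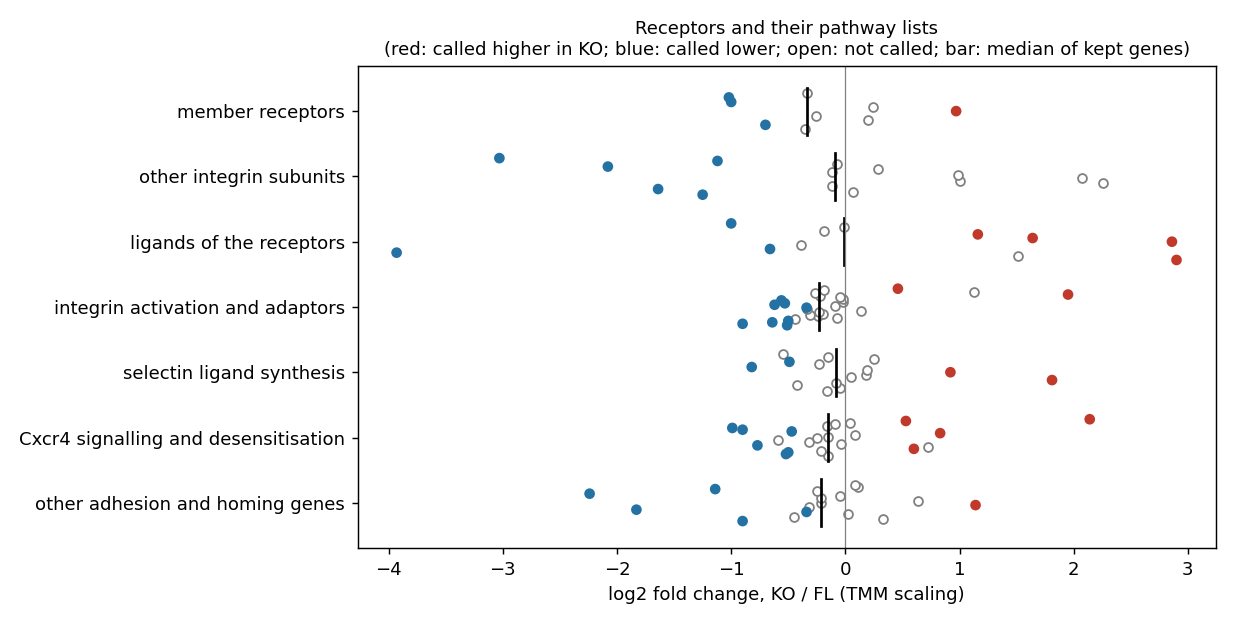
Log2 fold change of KO over FL (x axis, TMM scaling) for the receptors and for the kept genes of 6 pathway lists, 1 point per gene, with the median as a bar. Calls in both directions occur in every row except the other integrin subunits, where the 5 called genes lie between -3.03 and -1.12.

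Of 18 ligand genes, 11 were kept, 4 rose and 3 fell, or 6 and 1 by total counts, and the median was -0.01. Over all genes the shares higher and lower were 13.0% and 14.9%, or 51.7% and 5.09% by total counts. Fn1, which encodes fibronectin, averaged 2.10 ± 0.968 CPM in KO and 31.8 ± 18.7 CPM in FL (SD, n = 4 each; log2 fold change -3.93, SE 0.52, adjusted p = 4.3e-04 by edgeR). The complement gene C3, whose fragment iC3b binds Mac-1, averaged 136 ± 28.2 CPM in KO and 43.8 ± 17.6 CPM in FL (SD, n = 4 each; 1.64, adjusted p = 0.0013 by edgeR). F11r, which encodes a junctional ligand of LFA-1, averaged 2.03 ± 1.02 CPM in KO and 0.275 ± 0.151 CPM in FL (SD, n = 4 each; 2.86, adjusted p = 0.0027 by edgeR), with 46 counts over the FL group. Spp1, which encodes the CD44 and integrin ligand osteopontin, fell by 1.0 on that scale (adjusted p = 0.0034 by edgeR), a call lost under total-count scaling (-0.43). Cxcl12 and Vcam1, whose products stroma and vessels present to these receptors, were low. Cxcl12 was at 0.438 to 1.05 CPM in KO and 0 to 0.249 CPM in FL, and passed (adjusted p = 0.024 by edgeR). This call was lost without any 1 of KO replicates 1 and 2 and FL replicate 3 (adjusted p 0.052 to 0.071 by edgeR) and without KO replicates 2 and 3 (0.15). Vcam1 measured 2.80, 7.40, 21.5 and 4.41 CPM in KO and 2.26, 2.56, 3.40 and 4.42 CPM in FL, so KO replicate 3 stood far above the rest. Its log2 fold change of 1.51 did not pass (adjusted p = 0.060 by edgeR). It passed by total counts (2.13, adjusted p = 0.0026 by edgeR), with no count filter, and without KO replicate 1 (1.80, 0.022) or KO replicate 4 (1.72, 0.041). Without KO replicates 2 and 3 it was 0.20 (0.76).

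Of 30 genes for proteins that switch integrins on or tie them to actin, 26 were kept, 8 fell and 2 rose. Over all genes 14.9% were called lower and 13.0% higher. Under total-count scaling 8 rose and 0 fell by edgeR, with 11 at an unadjusted p under 0.05. There 51.7% of all genes were called higher and 5.09% lower. Without KO replicates 2 and 3, 2 rose and 0 fell, with 9 at that unadjusted p, and 5.44% of all genes were called higher and 7.31% lower. DESeq2 called 8 lower and 5 higher of 30. The median was -0.23 under TMM. Fermt3 encodes kindlin-3, which binds beta chain tails in blood cells. It averaged 473 ± 35.4 CPM in KO and 737 ± 51.4 CPM in FL (SD, n = 4 each; log2 fold change -0.64, SE 0.11, adjusted p = 0.0018 by edgeR). The actin crosslinker gene Flna and the parvin gene Parvg had -0.62 and -0.56 (adjusted p = 0.0029 and 0.0038 by edgeR). Under total-count scaling Fermt3, Flna and Parvg were at -0.05, -0.03 and 0.04 and did not pass. Actn1, an alpha-actinin gene, rose by 1.95 (adjusted p = 0.0014 by edgeR) to 2.72 ± 0.414 CPM in KO, against 0.704 ± 0.274 CPM in FL (SD, n = 4 each). Tln1, which encodes the integrin activator talin-1, fell by 0.51 on the log2 scale (adjusted p = 0.014 by edgeR) and did not pass under total-count scaling (0.10), without KO replicate 2 (-0.49, 0.051) or without KO replicates 2 and 3 (-0.46, 0.15).

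The selectin ligand list held 14 genes that act in making selectin ligands, tyrosine sulfotransferase genes among them, and 1 gene, Glg1, for a protein that carries the glycans. All 15 were kept, with 2 higher, 2 lower and a median of -0.08. Over all genes the shares higher and lower were 13.0% and 14.9%, or 51.7% and 5.09% by total counts. Under total-count scaling 9 rose and 0 fell by edgeR, with 11 at an unadjusted p under 0.05, and DESeq2 with its own factors called 2 in each direction. Fut7, the fucosyltransferase needed for selectin binding by leukocytes, averaged 76.8 ± 7.54 CPM in KO and 79.3 ± 18.2 CPM in FL (SD, n = 4 each; log2 fold change -0.05, adjusted p = 0.86 by edgeR). It was one of the 9 under total-count scaling, at 0.54 (adjusted p = 0.028 by edgeR). C1galt1, which extends O-glycan chains, had a log2 fold change of 0.92, with SE 0.18 and an edgeR adjusted p of 0.0041, and averaged 5.56 ± 0.509 CPM in KO and 2.94 ± 0.335 CPM in FL (SD, n = 4 each). The GDP-fucose transporter gene Slc35c1 had -0.49 (adjusted p = 0.016 by edgeR), and the tyrosine sulfotransferase gene Tpst1 -0.82 (adjusted p = 0.022 by edgeR). Both calls were lost under total-count scaling, where the values were 0.10 and -0.20, and that of Tpst1 without KO replicate 3 (-0.71, adjusted p = 0.055 by edgeR). St3gal6, a sialyltransferase gene, had 84 counts over the KO group and 20 over the FL group. Its call (1.81, adjusted p = 0.029 by edgeR) was lost without any 1 of KO replicates 2 and 3 and FL replicates 1 to 3 (adjusted p 0.067 to 0.086 by edgeR).

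Of 24 genes that act on or below Cxcr4, 22 were kept, 4 rose and 6 fell, or 12 and 1 by total counts, and the median was -0.16. The all-gene shares higher and lower were 13.0% and 14.9%, or 51.7% and 5.09% by total counts. The GTPase gene Cdc42 averaged 650 ± 77.0 CPM in KO and 1286 ± 164 CPM in FL (SD, n = 4 each; log2 fold change -0.99, SE 0.13, adjusted p = 5.0e-04 by edgeR). Rac2, the blood cell Rac GTPase, had -0.90 (adjusted p = 9.8e-04 by edgeR), and -0.29 under total-count scaling, where it did not pass. Dpp4 encodes CD26, a surface peptidase that cleaves CXCL12. It measured 50.4, 37.9, 15.9 and 56.0 CPM in KO and 8.70, 9.51, 7.49 and 10.5 CPM in FL. The lowest KO library, replicate 3, was above all of FL. Its log2 fold change came to 2.14, with SE 0.32 and an adjusted p of 8.4e-04 by edgeR, and with the number of detected genes in the model it was 3.54 and passed (adjusted p = 0.013 by edgeR). Pik3r5, a regulatory subunit of the G protein-activated PI3 kinase, rose by 0.83 on the log2 scale (adjusted p = 0.0026 by edgeR).

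Of 24 other adhesion and homing genes, 23 were in the table, 17 were kept, 1 rose and 5 fell, or 5 and 3 by total counts, and the median was -0.21. The all-gene shares higher and lower were 13.0% and 14.9%, or 51.7% and 5.09% by total counts. Cd24a, a P-selectin ligand gene, averaged 442 ± 23.7 CPM in KO and 1566 ± 619 CPM in FL (SD, n = 4 each; log2 fold change -1.83, SE 0.24, adjusted p = 3.8e-04 by edgeR). Ccr1 had -2.24 (adjusted p = 0.0016 by edgeR) and S1pr4, a sphingosine-1-phosphate receptor gene, -1.14 (adjusted p = 0.0027 by edgeR). Cd47, the "don't eat me" signal that also associates with integrins, averaged 1067 ± 139 CPM in KO and 1987 ± 550 CPM in FL (SD, n = 4 each; -0.90, adjusted p = 0.0055 by edgeR), a call lost under total-count scaling (-0.27). The 1 gene that rose was Alcam, a homotypic adhesion molecule, by 1.14 (adjusted p = 0.0065 by edgeR), or 0.99 without KO replicates 2 and 3, where it did not pass (0.070). The genes named in the 6 lists that were called under TMM, apart from Dpp4, did not pass with the number of detected genes in the model.

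**Figure D5:**
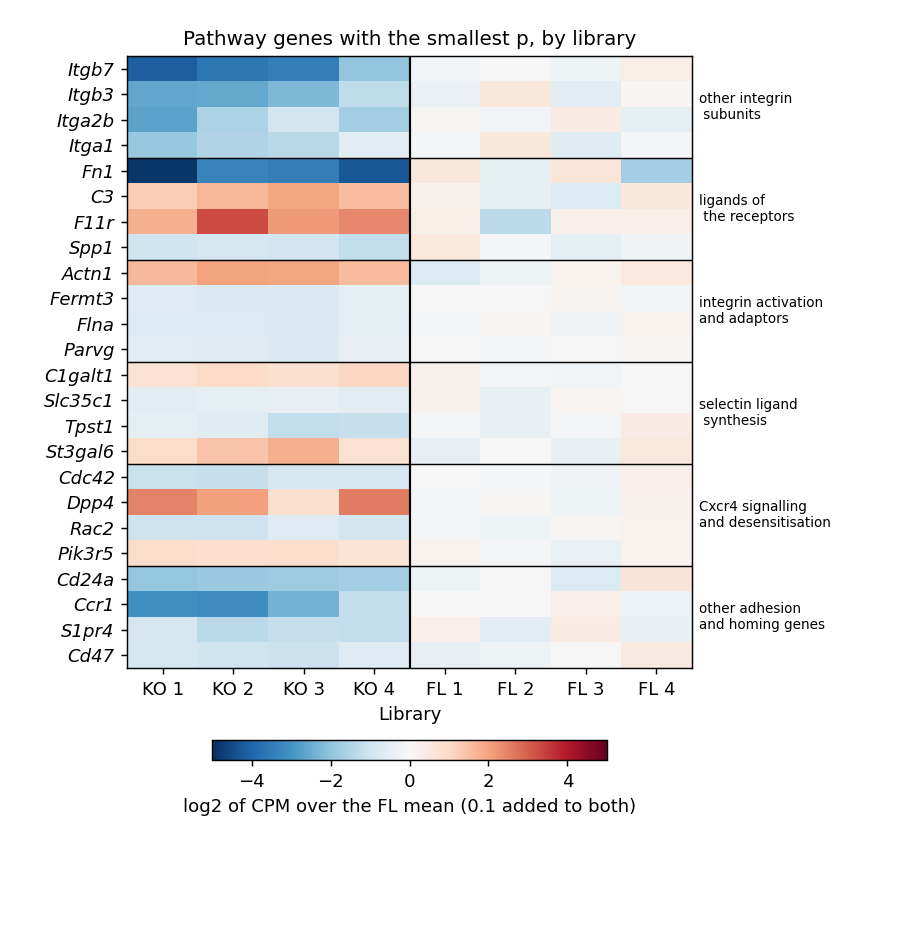
Log2 of CPM over the FL mean, with 0.1 CPM added to both, in each library for the 4 genes with the smallest p in each pathway list. Itgb7 and Fn1 are far below the FL mean in all 4 KO libraries, and Dpp4, C3 and F11r are above the FL mean in all 4 KO libraries.

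Markers of other blood cells, many of which carry these receptors, differed between libraries. With the number of detected genes in the model, no gene of the marker lists here or in the next paragraph was called, where 1.18% of all genes were. The 9 monocyte and macrophage markers summed to 1834 to 2104 CPM in KO and 3174 to 6383 CPM in FL. Of 6 kept, 4 were called lower and 2 higher, where 14.9% of all genes were called lower and 13.0% higher. Ly6c2 alone held 1271 to 1660 CPM of the sum in KO and 2533 to 5832 CPM in FL. Ly6c2 and Cd68 fell by 1.35 and 0.97 on the log2 scale (adjusted p = 0.0018 and 0.0012 by edgeR). By total counts Cd68 was at -0.40 and did not pass. Csf1r averaged 222 ± 48.9 CPM in KO and 133 ± 19.5 CPM in FL (SD, n = 4 each; 0.73, adjusted p = 0.0083 by edgeR), with every KO library above every FL library. Cx3cr1 had 0.90 (adjusted p = 0.047 by edgeR), a call lost without any 1 of KO replicates 2 to 4 and FL replicates 1 and 3 (0.058 to 0.12). Fcgr1, C1qa and C1qb were too low to be kept. The 9 neutrophil markers summed to 166, 371, 2455 and 346 CPM in KO replicates 1 to 4 and to 94.1 to 713 CPM in FL. All 9 were kept, and 2 were called higher and 1 lower, against the same all-gene shares. Retnlg rose by 3.72 and Mmp8 fell by 1.84 (adjusted p = 3.4e-04 and 0.0033 by edgeR). The 9 eosinophil markers summed to 287, 938, 1348 and 299 CPM in KO and to 121 to 227 CPM in FL. Of 8 kept, 6 were called higher and 1 lower, with a median log2 fold change of 4.14, against the same all-gene shares. Without KO replicates 2 and 3, 2 were called higher and 1 lower, where 5.44% of all genes were called higher and 7.31% lower. Prg2 rose by 3.56, and Siglecf, the 1 called lower, fell by 1.60 (adjusted p = 0.0038 and 0.0020 by edgeR). Ccr3 had no FL count and 49 counts over the KO group. KO replicate 3 was the highest library for both the neutrophil and the eosinophil sum. Among KO libraries it was lowest for Itgal. It was below only KO replicate 4 for Itgb2, Itgam, Cxcr4 and Cd44, and below only KO replicate 1 for Itgb1. For Selplg, Itga4 and Itga5 it was above only KO replicate 1. The part of such cells in the receptor levels was not tested.

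The 8 mast cell and basophil markers summed to 41.5 to 83.5 CPM in KO and 132 to 270 CPM in FL, and Cpa3 fell by 4.71 on the log2 scale while Ms4a2 rose by 1.82 (adjusted p = 2.3e-04 and 0.0030 by edgeR). Prss34 and Cma1 had no count in FL. In KO replicates 1 to 4 Prss34 had 2, 3, 19 and 786 counts, and Cma1 had 2 counts over the KO group. T and NK cell markers, of interest because lymphocytes are rich in LFA-1, summed to 407 to 546 CPM in KO and 304 to 531 CPM in FL. Nkg7 alone held 404 to 545 CPM of that in KO and 303 to 530 CPM in FL (log2 fold change 0.11, adjusted p = 0.70 by edgeR, or 0.71 and called by total counts). Klrb1c was at 0.84 ± 0.262 CPM in KO and 0.121 ± 0.147 CPM in FL (SD, n = 4 each). The log2 fold change of Klrb1c was 2.74 (adjusted p = 0.017 by edgeR, or 0.053 without FL replicate 3). Cd3g, Cd8a and Ncr1 had no count in FL and 23, 9 and 17 counts over the KO group. The B cell list summed to 78.9 to 102 CPM in KO and 89.3 to 119 CPM in FL, nearly all from Cd79b (-0.39, adjusted p = 0.046 by edgeR), and Vpreb1 had 1.54 (0.044). Cd79b was at 0.18 by total counts, and its call was lost without any 1 of KO replicates 1 to 3 and FL replicates 1 to 3 (adjusted p 0.087 to 0.13 by edgeR). That of Vpreb1 was lost without any 1 library except FL replicate 4 (0.050 to 0.12). Erythroid markers summed to 3.91 to 28.8 CPM in KO and 2.37 to 4.53 CPM in FL, with Hbb-bs at 4.51 and Alas2 at 1.01 on the log2 scale (adjusted p = 0.0048 and 0.044 by edgeR). Without any 1 library the call of Alas2 was lost (0.051 to 0.13). Megakaryocyte markers summed to 4.70 to 7.14 CPM in KO and 1.69 to 2.45 CPM in FL, with Gp9 at 2.65 and Vwf at 1.16 (adjusted p = 0.0011 and 0.0060 by edgeR). Stroma and endothelium markers summed to 2.60 to 10.8 CPM in KO and 16.9 to 28 CPM in FL, in FL mostly from Pdgfrb. Pdgfrb had -2.12 (adjusted p = 0.0070 by edgeR) and Lepr -1.79 (0.28). Col1a1, Col1a2, Cdh5, Kdr and Emcn were too low to be kept. They had 100, 72, 14, 75 and 47 counts over the KO group and 3, 10, 12, 18 and 4 over the FL group.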

How the data were processed

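RNA was extracted with a miRNeasy kit, amplified by Geo-seq and made into libraries with the TruePrep transposase kit, per the labels' protocols. Molecular identifiers are not mentioned there, and amplified copies may be counted more than once. The authors deposited raw read counts per gene for 8 libraries. Bowtie 0.12.9, HTSeq 0.13.5, DESeq2 and mm10 are named, per the submitters' processing notes, without roles; the sheet name gives featureCounts. The sources used here do not give the annotation, the strand setting or the treatment of shared reads. Columns named WT were taken as FL, the only group without the knockout.

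KO was compared with FL by edgeR 4.0.16 in R 4.3.3 (TMM, filterByExpr, quasi-likelihood F test, Benjamini-Hochberg adjustment over 17418 genes, threshold 0.05); the standard error is the log2 fold change over the square root of F. The step was tested on simulated data with 200 changed genes. It recovered 54.7% of 2-fold and 76.1% of 4-fold changes, and 4.69% of its calls were false. A gene that was not called may therefore still differ. Lengths and positions came from GENCODE M21, promoters from RefSeq. No library copied another: chi-square per degree of freedom within groups was 21.2 or more. Named are the 9 receptors, Dek, and the genes with the smallest p in each list (4 per pathway list, 2 per marker list); other genes were named after their values were seen. Receptors and lists were chosen with earlier results of these data known. Alternatives were DESeq2 1.42.0, limma-voom (limma 3.58.1), RLE, upper-quartile and total-count scaling, other count filters, the replicate block, detected genes as a covariate, a fold limit and leaving libraries out.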

Additional observations from a re-analysis of the deposited data

Results flagged for a closer look

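In 122 groups of 4 libraries, 8 values stood apart from the other 3 by Dixon's test at 95%, which chance gives in about 1 in 20 groups. KO replicate 4 was high for Itgb7, at 67.2 CPM against 15.0 to 23.5 CPM in the other KO libraries, for the Itgb7 to Itgb1 ratio, at 1.01 against 0.189 to 0.324, and for Flna, at 176 CPM against 146 to 150 CPM. KO replicate 3 was low for the sort markers Cd34, at 374 CPM against 484 to 501 CPM, and Kit, at 107 CPM against 164 to 172 CPM. FL replicate 2 was low for the Itgal to Itgb2 ratio, at 0.0444 against 0.0644 to 0.0664, and for F11r, at 0.0498 CPM against 0.347 to 0.355 CPM. FL replicate 1 was low for Alas2, at 0.40 CPM against 0.669 to 0.725 CPM.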

How the results depend on the processing

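Of 17418 genes tested, 4853 were called, 9898 with total-count scaling, 205 with detected genes as a covariate and 2562 past a log2 fold of 1; 3140 of 10013 were called with 5 CPM required in 4 libraries and 2342 of 18367 without KO replicates 2 and 3. Calls among the receptors (4) became 7 with limma-voom, 1 with the covariate, 1 past the fold limit and 2 without those libraries; among pathway genes 42 became 1 with the covariate, 18 past the fold limit and 18 without those libraries. Total-count scaling gave log2 fold changes of 0.21 for Cxcr4, -0.10 for Itga4, 0.78 for Itga5, 0.34 for Itgb1, -0.42 for Itgb2, 0.25 for Cd44, 0.04 for Parvg, 0.10 for Slc35c1 and 0.18 for Cd79b. With limma-voom Cxcr4 (-0.50), Itgb1 (-0.27) and Cd44 (-0.38) were called, and Itgam was -0.24. With the covariate Itga4 (-0.60), Itgb2 (-0.26) and Selplg (-0.98) were not called; past the fold limit Itga4 (-0.70), Itgal (0.97) and Itgb2 (-1.0) were not; without KO replicates 2 and 3 Itga4 (-0.66) and Itgb2 (-0.73) were not; with the 5 CPM filter Itgb2 (-0.93) was not. Apart from settings whose construction lowers the calls, the cause was not tested. Leaving out 1 library gave 3397 to 5033 genes, 3 to 5 receptors and 33 to 48 pathway genes, and ranges of -0.52 to -0.26 for Cxcr4, -0.81 to -0.60 for Itga4, 0.15 to 0.24 for Itga5, -0.32 to -0.23 for Itgb1, 0.82 to 1.11 for Itgal, -0.22 to 0.45 for Itgam, -1.47 to -0.82 for Itgb2, -1.10 to -0.99 for Selplg and -0.43 to -0.29 for Cd44. Cd44 was called without KO replicate 4 or FL replicate 3, and Nkg7 ran from -0.03 to 0.22. Log2 ratio differences ran from -0.54 to -0.31 (Itga4 to Itgb1), 0.39 to 0.54 (Itga5 to Itgb1), -0.97 to -0.77 (Itga4 to Itga5), 1.85 to 2.30 (Itgal to Itgb2), 1.10 to 1.38 (Itgam to Itgb2), 0.56 to 1.06 (Itgal to Itgam) and -3.49 to -2.69 (Itgb7 to Itgb1).

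Same-numbered KO and FL libraries had residual correlations of 0.0192 to 0.0474, and not every library correlated best with its own number. All KO and FL pairs lay between -0.157 and 0.0716. Values this near 0, from residuals of 4 libraries per group, cannot decide whether the numbers pair the libraries, and the labels do not say. With the replicate block 4339 genes, 4 receptors and 40 pathway genes were called, and values were -0.34 for Cxcr4, -0.69 for Itga4, 0.20 for Itga5, -0.26 for Itgb1, 0.94 for Itgal, 0.13 for Itgam, -1.15 for Itgb2, -1.03 for Selplg and -0.34 for Cd44.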

Other observations

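FL replicate 4 was the highest FL library for several abundant genes around the receptors, chosen after their values were seen. Rap1b, a GTPase gene on the path from CXCR4 to integrins, measured 174, 140, 138 and 171 CPM in KO replicates 1 to 4 and 102, 118, 177 and 447 CPM in FL replicates 1 to 4. Glg1, an E-selectin ligand gene, measured 151, 139, 136 and 179 CPM in KO and 137, 209, 189 and 353 CPM in FL. Gnai2, the G protein subunit gene through which CXCR4 signals, measured 82.0, 80.1, 82.7 and 92.3 CPM in KO and 59.8, 77.4, 76.6 and 160.0 CPM in FL. Under TMM scaling none of Rap1b, Glg1 and Gnai2 passed (adjusted p 0.43, 0.11 and 0.70 by edgeR). Gnai2 was called higher by total counts (0.50, adjusted p = 0.044), Glg1 lower without FL replicate 1 (-0.74, 0.029), and Rap1b and Glg1 lower with no count filter (-0.47 and -0.59). In the same FL library Cxcr4 was lowest of its group, at 14.9 CPM.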
